A study of Solanum lycopersicum with 9 samples.

Results

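CHS1, CHS2, MYB12, CD2 and ltpg1 are 5 tomato genes of the fruit surface, 3 of flavonoid formation and 2 of the cuticle, and their expression was followed through 4 stages of ripening. They were chosen by name, from genes whose lower signal at red ripe was already known, and each was to be read by its probe set with the highest mean signal over the 9 arrays. On this array each gene had 1 probe set, so that measured mean selected nothing further, and the 5 probe sets stand among 67795 in all and 23194 with 1 gene symbol. Because the genes were chosen with their falls known, their levels and differences are described here without a test. The comparison lists were also chosen with earlier results of these data known. Adjusted p-values and counts for list genes carry that limit.

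Transcripts were read on TomGene ST 1.1 array strips from Affymetrix, on which a probe set of several probes reads each transcript cluster. The fruits were of wild type tomato cv. Ailsa Craig from a hydroponic greenhouse, none of them treated, staged as breaker, turning, pink and red ripe by skin colour. Breaker, turning and pink had 2 arrays each and red ripe had 3, whereas the methods state 2 independent biological replicates a stage. The labels name the tissue as pericarp, the fleshy fruit wall, and 1 sentence of the methods names abscission zones. The sample titles do not say whether the skin was kept. Values are log2 signals from RMA, a method that corrects background, normalizes the arrays to each other and summarizes the probes, so a difference of 1 is a doubling of signal.

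Flavonoids are pigments of the tomato skin. Chalcone synthase makes their first dedicated intermediate, naringenin chalcone, which colours the skin of ripe fruit yellow. MYB12 is a MYB transcription factor that activates chalcone synthase and later genes of the pathway, and fruit lacking it has a colourless skin and looks pink. The cuticle is the layer of cutin and wax laid down by the epidermis. CD2 is a homeodomain-leucine zipper transcription factor of the epidermis without which fruit makes little cutin, and ltpg1 carries the name of the lipid-transfer proteins, small secreted proteins that bind lipids and are thought to carry cuticle components through the cell wall.

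Facts of the arrays bear on every value below. The median signal of all probe sets lay between 1.78 and 2.01 on the 9 arrays, and the level exceeded by 1 in 10 probe sets was 4.17 to 4.55 at turning and pink but 5.09 to 5.43 at breaker and red ripe. The deposited values thus did not have equal distributions across stages, although RMA includes a normalization. The cause was not tested, and some differences below moved with further normalization. The median difference of all probe sets was 0.12 for turning against breaker, 0.09 for pink against breaker and 0.01 for red ripe against breaker, and with the arrays centred on their medians these shifts were -0.05, -0.03 and 0.03. Ripening markers of the pericarp did not move together. PG2, the fruit polygalacturonase, lay at 9.09 to 11.44 over all arrays. PG2, Psy1, TDR4, EXP1 and tEG3 had their highest mean at red ripe, loxC and E8-6 at pink and NAC-NOR at breaker. EXP1 lay at 1.12 to 1.74 on the turning and pink arrays. From breaker to turning the mean of tEG3 went from 7.06 to 3.21 and that of NAC-NOR from 10.88 to 8.67. E8-6 was lowest at red ripe, with a mean of 4.14. The mean of 8 matched pericarp markers was 7.78 to 8.01 on breaker arrays, 6.62 to 6.70 on turning arrays, 7.57 to 7.62 on pink arrays and 8.31 to 8.37 on red ripe arrays. Of 5 matched abscission zone markers, TAPG2, TAPG4, cel5 and Ls stayed at 2.94 or below on every array, while Cel1 lay at 2.95 to 6.99; their mean was 2.19 to 2.60 on breaker arrays, 1.95 to 2.18 on turning arrays, 2.46 to 2.54 on pink arrays and 2.15 to 2.39 on red ripe arrays. The mean of 3 green tissue markers was 2.48 to 2.77 on breaker arrays, 1.93 to 2.06 on turning arrays, 1.83 to 1.96 on pink arrays and 1.55 to 1.74 on red ripe arrays. Among them CAB4, a chlorophyll-binding protein, had 4.86 and 3.96 on the breaker arrays and 2.21 or less on all others. RBCS-1 lay at 1.58 to 2.51 and RBCS-2A at 1.01 to 1.67 over all arrays. From breaker to turning only CAB4 had a lower mean. No seed marker could be matched. The part of tissue composition in the results was not tested. In a whole-tissue sample, fewer epidermal cells and less RNA per cell cannot be told apart.

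All 5 genes had their lowest mean at red ripe, but they reached it by different routes. CHS1 was below its breaker level from turning on, and ltpg1 was near its own at turning and lower from pink on. CHS2 stayed near its breaker level up to pink, and its large fall came at red ripe. MYB12 was lower at turning, back at pink and lowest at red ripe, and CD2 was highest at turning. The signal of 4 of the 5 genes was lower on each red ripe array than on any array of the other stages, which held for 4.12% of all probe sets; the exception was CHS1, whose turning and red ripe arrays overlapped. These values belong to the contrast for which the genes were known and are no evidence about them as a group.

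**Figure D1:**
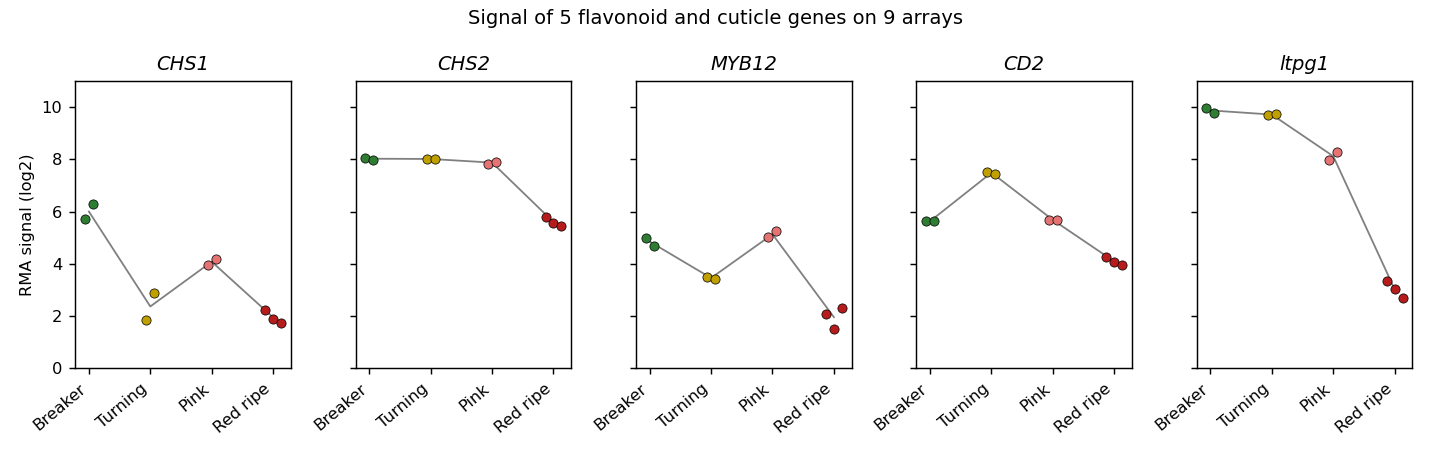
RMA signal (log2, vertical axis) of CHS1, CHS2, MYB12, CD2 and ltpg1 at breaker, turning, pink and red ripe; each point is 1 array and the grey line joins the stage means. CD2 is highest at turning (7.45 and 7.53), CHS1 and MYB12 dip at turning and are higher again at pink, and ltpg1 lies between 2.68 and 3.35 at red ripe.

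CHS1, the first of the chalcone synthase genes, had signals of 5.71 and 6.29 at breaker, 1.86 and 2.87 at turning, 3.96 and 4.20 at pink, and 2.24, 1.88 and 1.72 at red ripe. Breaker was thus the highest stage and pink the second, and turning and red ripe overlapped. Turning minus breaker was -3.64 (standard error 0.34 from the limma fit), and 0.229% of all probe sets had a difference that low or lower. Pink minus turning was 1.72 (SE 0.34), so that pink averaged 4.08 ± 0.17 (SD, n = 2) against 2.37 ± 0.71 (SD, n = 2) at turning. Red ripe minus pink was -2.13 (SE 0.31), and red ripe minus breaker was -4.05 (SE 0.31). The turning arrays differed from each other more than those of any other stage: without turning replicate 1 the turning minus breaker difference was -3.13, and without turning replicate 2 it was -4.14. At red ripe between 42.6% and 67.4% of all probe sets had a lower signal than CHS1 on the same array, and at turning replicate 1 41.8%, so these levels lay near the middle of all probe sets, and without detection calls they could not be told from background. The differences that involve them are therefore given as differences in signal, with no fold.

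CHS2, the second chalcone synthase gene, was level through the earlier stages. Its signals were 8.06 and 7.99 at breaker, 8.01 and 8.02 at turning, 7.84 and 7.91 at pink, and 5.80, 5.57 and 5.43 at red ripe. The breaker and turning arrays overlapped, and pink lay just below turning, with a pink minus turning difference of -0.14 (SE 0.15) that was smaller than its standard error. Both pink arrays also lay below both breaker arrays, by a mean of 0.15. That pink minus breaker difference ranged from -0.27 to 0.12 under other scalings. Its turning minus breaker difference of -0.01 (SE 0.15) ranged from -0.18 to 0.39 under other scalings of the arrays, so it has no stable direction. Red ripe minus pink was -2.28 (SE 0.14), a 4.84-fold lower signal, and this step held 93.8% of the whole difference of -2.43 (SE 0.14) between red ripe and breaker. At red ripe CHS2 was still above 90.7% to 91.6% of all probe sets. At turning, where both CHS1 arrays lay below both of its breaker arrays, the turning and breaker arrays of CHS2 overlapped; the difference between the genes was not tested. The genes are close relatives, and how far their probes read each other's transcripts was not tested.

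MYB12, the regulator, had signals of 5.0 and 4.70 at breaker, 3.51 and 3.40 at turning, 5.01 and 5.25 at pink, and 2.06, 1.51 and 2.30 at red ripe. Pink and breaker were the highest stages, and their difference of 0.28 (SE 0.25, pink minus breaker) was close to its standard error, although it was 0.87 after quantile and 0.66 after cyclic loess normalization. Turning lay between them and red ripe and overlapped with neither. Turning minus breaker was -1.40 (SE 0.25), a 2.63-fold lower signal, and it was -0.78 after quantile normalization and -0.92 after cyclic loess normalization. Pink minus turning was 1.68 (SE 0.25) and red ripe minus pink was -3.17 (SE 0.23). Red ripe averaged 1.96 ± 0.40 (SD, n = 3) and breaker 4.85 ± 0.21 (SD, n = 2). Between 28.9% and 70.0% of probe sets lay below MYB12 on the red ripe arrays, so that its red ripe level, like that of CHS1, could not be told from background and no fold is given for it.

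The dip at turning and the higher level at pink were shared by CHS1 and MYB12 but not by CHS2. Both genes lay lower on every turning array than on every breaker array, as did ltpg1 by a small margin, making 3 of 5 genes, where the share over all probe sets was 21.2%. CD2 alone, 1 of 5, was higher on every turning array, against 35.5% of all probe sets. From turning to pink 2 of 5 genes, CHS1 and MYB12, were higher on every pink array, against 16.0% of all probe sets, and 3 of 5, CHS2, CD2 and ltpg1, were lower on every pink array, against 17.9%. From pink to red ripe all 5 were lower on every red ripe array, as were 26.7% of all probe sets, and against breaker all 5 were again lower on every red ripe array, as were 14.9%.

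**Figure D2:**
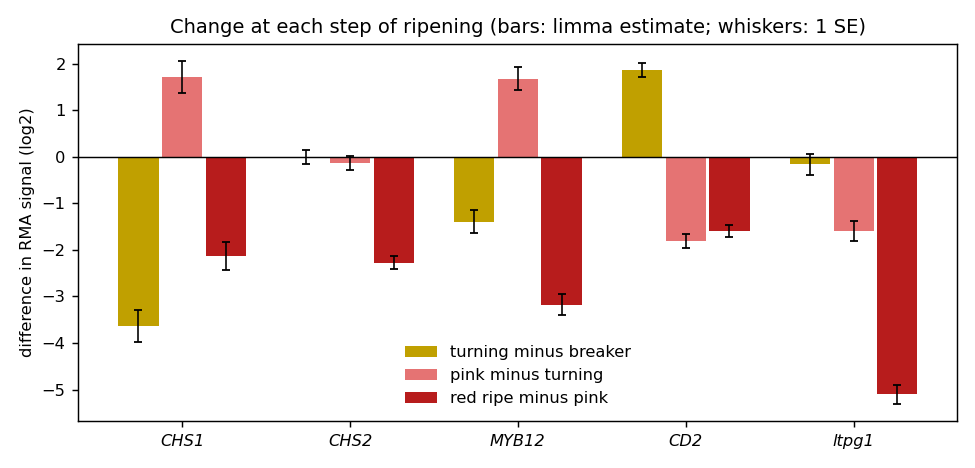
Difference in RMA signal (log2, vertical axis) at each step of ripening for the 5 genes; bars are limma estimates and whiskers 1 standard error. The last step is negative for all 5 genes and largest in size for ltpg1 (-5.10), while the middle step is positive for CHS1 and MYB12 and negative for CD2 and ltpg1.

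CD2, the epidermal regulator of cutin formation, went the other way at turning. Its signals were 5.64 and 5.62 at breaker, 7.53 and 7.45 at turning, 5.68 on both arrays at pink, and 4.25, 4.06 and 3.96 at red ripe. Turning was the highest stage and red ripe the lowest, with no overlap, and pink lay just above breaker. Turning minus breaker was 1.86 (SE 0.14), a 3.63-fold higher signal, and 99.8% of all probe sets had a difference as low or lower. Pink minus turning was -1.81 (SE 0.14) and red ripe minus pink was -1.59 (SE 0.13), 3.51-fold and 3.01-fold lower. Which of these steps was larger depended on the scaling, since red ripe minus pink was -2.22 and pink minus turning -1.75 after quantile normalization, and -2.27 and -1.95 after cyclic loess. Pink minus breaker was 0.05 (SE 0.14) and ranged from -0.07 to 0.57 under other scalings. Red ripe minus breaker was -1.54 (SE 0.13), the smallest of the 5 differences in size, and at red ripe 84.1% to 84.8% of probe sets had a lower signal than CD2.

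The lipid-transfer gene ltpg1 showed the lowest red ripe minus breaker difference of all 67795 probe sets. Its fall in this contrast was known when it was chosen, so the rank is a description only. Its signals were 9.97 and 9.78 at breaker, 9.69 and 9.74 at turning, 7.96 and 8.28 at pink, and 3.35, 3.03 and 2.68 at red ripe. Breaker and turning were nearly equal (-0.16, SE 0.22), a difference that ranged from -0.33 to 0.24 under other scalings. Pink minus turning was -1.60 (SE 0.22), 3.02-fold lower and in the lowest 0.187% of all probe sets. Red ripe minus pink was -5.10 (SE 0.20), 34.3-fold lower, and this step held 74.4% of the whole difference. Red ripe averaged 3.02 ± 0.34 (SD, n = 3) and breaker 9.88 ± 0.13 (SD, n = 2), a difference of -6.86 (SE 0.20) or 116-fold. At breaker 99.6% and 99.7% of all probe sets lay below ltpg1, and at red ripe 76.3% to 80.5% did. Without detection calls, whether its red ripe level exceeded background was not tested, so 34.3-fold and 116-fold are ratios of signal only.

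**Figure D3:**
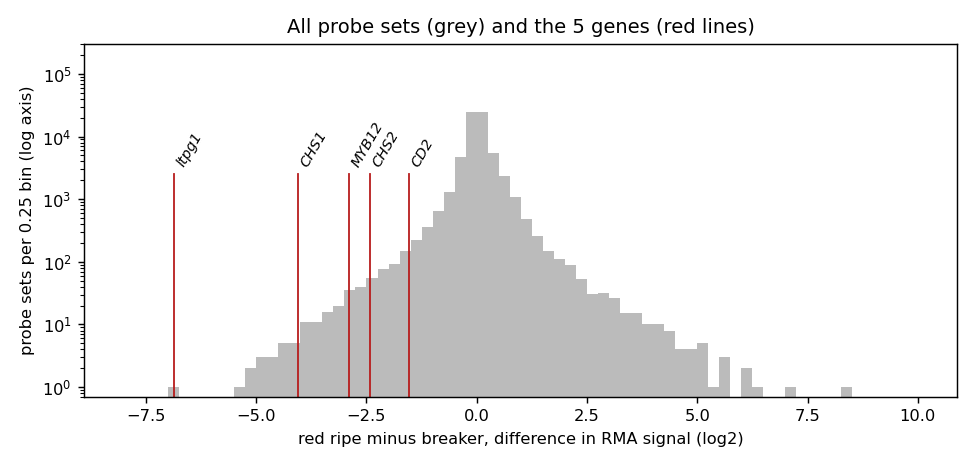
Number of probe sets (vertical log axis) by red ripe minus breaker difference in RMA signal (log2, bins of 0.25). Red lines mark the 5 genes, which were chosen with their falls in this contrast known. The line of ltpg1 (-6.86) marks the lowest difference of all, and that of CD2 (-1.54) is the nearest to 0 of the 5.

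ltpg1 lies in a row of lipid-transfer genes, and its neighbours were read beside it. In the order of genes on the RefSeq assembly SLM_r2.1, LOC101266080, which RefSeq also names ltp, LE16 and TSW12 sit beside it. LE16, a lipid-transfer protein gene that RefSeq also lists as LTP 2 and as an allergen, had signals of 8.15 and 6.99 at breaker, 6.50 and 6.73 at turning, 5.95 and 6.24 at pink, and 4.57, 4.20 and 3.62 at red ripe. At red ripe against breaker LE16 fell by 3.44 on the log2 scale (SE 0.36, limma adjusted p = 0.000967), 10.9-fold. At pink its difference from breaker was -1.48 (SE 0.39, adjusted p = 0.0483), past the test by a narrow margin, and the call was lost without breaker replicate 1 (-0.90). It was lost as well without either turning or pink array or without red ripe replicate 1 or 2, with the replicate block (-1.48), array weights or only the 2 stages compared, and after quantile (-1.15) or cyclic loess (-1.08) normalization. LOC101266080 had means of 4.58 for breaker, 2.83 for turning, 1.67 for pink and 1.36 for red ripe. At pink and red ripe it lay below the array medians and, without detection calls, could not be told from background. It was picked after its values were seen and was not tested. TSW12, also listed by RefSeq as LTP 1, had 3.09 on 1 breaker array and between 1.07 and 1.40 on all others, and was not past the test at any stage (adjusted p = 0.165 for turning, 0.316 for pink and 0.286 for red ripe). Each of these genes was lower on every turning array than on every breaker array, as were 21.2% of all probe sets. Turning minus breaker was -1.745 for LOC101266080, -0.955 for LE16, -0.16 for ltpg1 and -1.06 for TSW12. Whether the order of their falls differed along the row was not tested. How far the probes of these related genes read each other's transcripts was not tested.

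**Figure D4:**
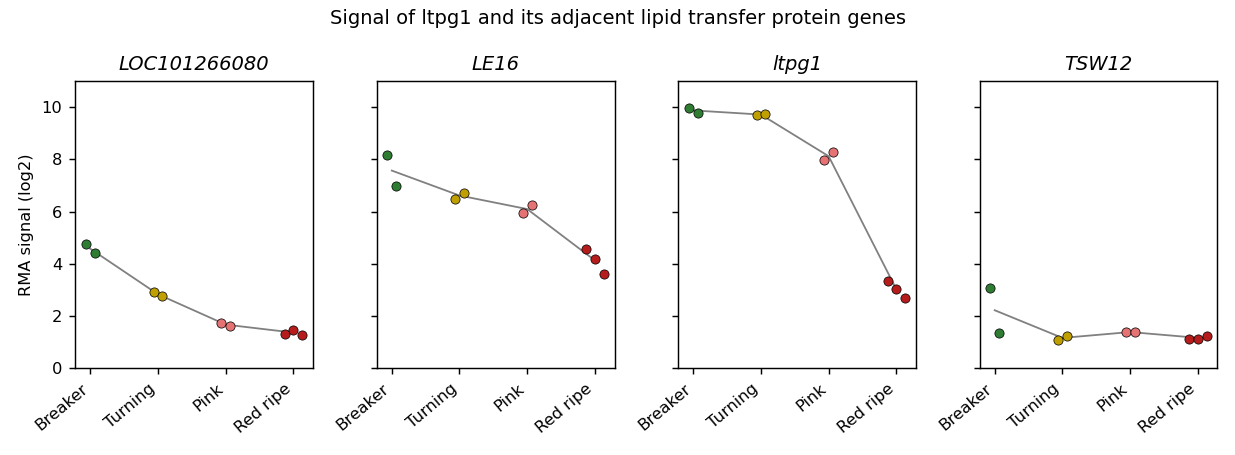
RMA signal (log2, vertical axis) of LOC101266080, LE16, ltpg1 and TSW12, in their order on the chromosome, at the 4 stages; points are arrays and grey lines join stage means. LOC101266080 and LE16 have a lower mean at each later stage, ltpg1 stays near its breaker level at turning and is lower at pink and red ripe, and TSW12 is above 1.40 on 1 breaker array only.

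Of 12 kinds of flavonoid enzyme or regulator listed for comparison, genes of 2 could be matched to a probe set by name: the enzyme flavanone 3-hydroxylase (F3H) and 5 regulators. Like the cuticle list, this list was chosen with earlier results of these data known, so its p-values and counts are no independent support. F3H, which acts after chalcone synthase and chalcone isomerase, fell at all 3 later stages. Its signals were 8.66 and 8.64 at breaker, 6.69 and 6.07 at turning, 7.30 and 7.38 at pink, and 5.13, 4.72 and 4.85 at red ripe. It fell by 2.27 at turning (SE 0.22, limma adjusted p = 0.000321), by 1.31 at pink (SE 0.22, adjusted p = 0.00594) and by 3.75 at red ripe (SE 0.20, adjusted p = 2.72e-05), 13.5-fold at the last. Like CHS1 and MYB12 it was lower at turning than at pink on every array, although pink minus turning (0.96, SE 0.22) was not past the test (adjusted p = 0.0677).

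The 5 matched regulators differed among themselves. HY5, a light-signalling bZIP factor that activates flavonoid genes, rose by 1.27 at turning and 1.38 at pink (SE 0.25 each, limma adjusted p = 0.0119 and 0.0095) and at red ripe had a difference of 0.52 (adjusted p = 0.421); without breaker replicate 2 these differences were 0.92 and 1.03 and not past the test, and the call at turning was also lost with array weights or only the 2 stages compared. COP1, a ubiquitin ligase that in Arabidopsis removes HY5 in the dark, rose by 1.64 at red ripe (SE 0.15, adjusted p = 0.000494), with 6.91, 6.96 and 6.86 at red ripe against 5.43 and 5.11 at breaker. DDB1, which carries the high pigment mutation hp1, fell at turning by 0.86 (SE 0.22, adjusted p = 0.0322), a call lost without breaker replicate 1, breaker replicate 2, turning replicate 1 or any 1 red ripe array, with the replicate block or only the 2 stages compared, and after quantile (-0.45) or cyclic loess (-0.44) normalization. Det1, the gene of another high pigment mutation, and ANT1, an activator of anthocyanin formation at 1.22 to 1.68 on all arrays, were not past the test at any stage. In all, 2 of the 6 listed flavonoid genes fell and 1 rose at turning, against 9.01% and 3.87% of all probe sets. At pink 1 fell and 1 rose, against 7.39% and 2.77%, and at red ripe 1 fell and 1 rose, against 1.69% and 2.35%. Their median difference was -0.09 for turning, 0.19 for pink and 0.18 for red ripe, beside 0.12, 0.09 and 0.01 for all probe sets, and F3H was the only one of the 6 that fell at red ripe.

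Of 7 kinds of cuticle gene listed, 2 could be matched, with 4 genes besides CD2 and ltpg1: LE16, TSW12 and the triterpenoid synthases lTTS1 and TTS2, which make pentacyclic alcohols of the fruit wax. lTTS1 had 2.83 and 3.10 at breaker, 2.11 and 1.74 at turning, 1.80 and 1.39 at pink, and 1.32, 1.42 and 1.53 at red ripe. It fell by 1.04 at turning, by 1.37 at pink and by 1.54 at red ripe (SE 0.20, 0.20 and 0.18; limma adjusted p = 0.00969, 0.00291 and 0.00194). The call at turning was lost without breaker replicate 2 (-0.91) and with only the 2 stages compared. After breaker its levels lay near the array medians and, without detection calls, could not be told from background. TTS2 lay at 1.25 to 2.07 on all arrays and was not past the test. Of the 4 genes 1 fell at turning and 2 at pink and at red ripe, against 9.01% of all probe sets for turning, 7.39% for pink and 1.69% for red ripe. Their median difference was -0.997 for turning, -1.10 for pink and -1.30 for red ripe, beside 0.12, 0.09 and 0.01 for all probe sets. These medians rest on 4 genes. TSW12 was high on 1 breaker array only (3.09, against 1.35 on the other). TTS2, and lTTS1 after breaker, lay near or below the array medians.

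**Figure D5:**
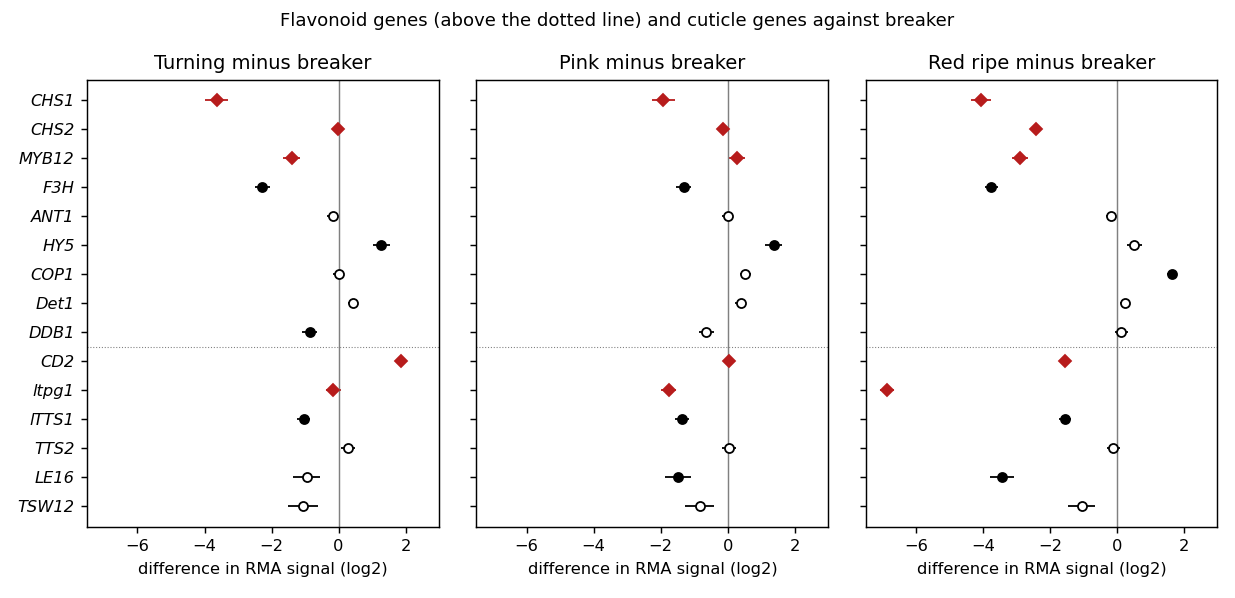
Differences in RMA signal (log2) of turning, pink and red ripe from breaker, with 1 standard error. Red diamonds are CHS1, CHS2, MYB12, CD2 and ltpg1, filled circles are other listed genes past an adjusted p of 0.05 in limma and open circles those not past it; F3H lies at -3.75 and LE16 at -3.44 at red ripe, on the same side as the 5 genes, and COP1 at 1.64 on the other.

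Some genes of other phenylpropanoid branches or that act in the same light pathway were read after their values had been seen and are given without a test. hqt, which makes chlorogenic acid, had means of 7.27 for breaker, 5.92 for turning, 6.60 for pink and 6.42 for red ripe. CCR1, a cinnamoyl-CoA reductase of the lignin branch, had 7.22, 4.71, 7.26 and 5.68 in the same order, also low at turning and high at pink. The other genes read from these branches did not show this: HCT6 had 6.37, 5.63, 5.75 and 6.02, with turning and pink overlapping, and CCR2, another cinnamoyl-CoA reductase gene, had 1.84, 1.64, 1.57 and 1.51. Red ripe minus breaker differences were -0.85 for hqt and -1.54 for CCR1. They were -4.05 for CHS1, -2.43 for CHS2, -2.89 for MYB12, -1.54 for CD2 and -6.86 for ltpg1. The 5 genes were chosen with their falls in this contrast known, so these sizes give no comparison between branches. The blue light receptor gene Cry1b had 4.95, 3.37, 2.92 and 3.04, the phytochrome gene phyA had 5.88, 5.08, 4.52 and 5.65, and cul4, the scaffold of the ubiquitin ligase that holds DDB1, had 4.23, 3.81, 3.69 and 4.69.

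The genes closest in pattern over the 9 arrays were sought among 7934 probe sets with 1 gene symbol and stage means more than 1 apart. These are descriptions, since all arrays share their stages and normalization. CHS2 came closest to LOC101245583 (Pearson r = 0.997), to LOC544313, which RefSeq also names GAD (r = 0.994), to LOC101245616 and to the lipoxygenase LOX1.1 (r = 0.988 each), whose mean was 5.59 at red ripe, against 8.98 at pink. ltpg1 came closest to LOC101245616 (r = 0.993), and CHS2 was the third closest of all 7934 (r = 0.986). MYB12 came closest to ZIP (r = 0.983) and SEND33 (r = 0.981), and SEND33 averaged 7.09 for breaker, 6.13 for turning, 7.24 for pink and 5.21 for red ripe. CD2 came closest to Hsp90-1, a heat shock chaperone (r = 0.986), with 8.18, 9.07, 8.09 and 7.63 in the same order. CHS1 came closest to LOC101266532 (r = 0.980) and LOC101264088 (r = 0.978). Among the 5 genes themselves the correlation ran from 0.163 for CHS1 with CD2 to 0.986 for CHS2 with ltpg1. CHS1 with CHS2 had 0.645. MYB12 had 0.807 with CHS1, 0.865 with CHS2 and 0.805 with ltpg1.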

How the data were processed

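The deposited values are log2 signals per probe set that the authors made from 9 arrays with RMA in Affymetrix Expression Console; Transcriptome Analysis Console 2.0 is listed in the submitters' notes too. The genome build is not given in the sources used here. The table was used as deposited, with all 67795 probe sets, no filter and no detection calls. Stage means were estimated from the 9 arrays together (limma 3.58.1, R 4.3.3; 5 residual and 3.65 prior degrees of freedom), and list genes were called at a Benjamini-Hochberg adjusted p of 0.05, with every probe set in the adjustment. Standard errors come from that fit. A run on simulated data, with equal spread at all stages, checked the recovery of planted red ripe changes but not the standard errors. The spread was pooled over stages, although the weights limma gave the arrays ran from 0.40 for turning and 0.57 for pink to 2.21 for breaker. Replicates are called independent in the methods, and p-values measure only the spread between these arrays, whose number limits precision.

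Genes were matched by array symbol or RefSeq synonym (SLM_r2.1, which held all 23194 names); no descriptions or sequences were used here. The 5 genes and the lists were chosen with earlier results of these data known. Named are the 5 genes, up to 6 falls and 6 rises per list and comparison by adjusted p, and the 5 probe sets nearest each gene by r; genes outside that rule are named as chosen after their values were seen. The alternatives were a replicate block, leaving out each array, median centring, quantile and cyclic loess normalization, leaving out the third of probe sets with the lowest mean, array weights, fits of 2 stages and the thresholds of the study.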

Additional observations from a re-analysis of the deposited data

How the results depend on the processing

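The red ripe minus breaker and red ripe minus pink differences of CHS1, CHS2, MYB12, CD2 and ltpg1 were negative under every alternative run for them. By contrast, some of the small differences of the earlier stages had no stable direction. The sign changed for CHS2 in pink minus breaker (0.12 after cyclic loess, against -0.15 as deposited), for CHS2 in turning minus breaker (0.21 after quantile and 0.39 after cyclic loess normalization and 0.025 without breaker replicate 1, against -0.01), for ltpg1 in turning minus breaker (0.24 after cyclic loess, against -0.16) and for CD2 in pink minus breaker (-0.065 after median centring, against 0.05). Differences that moved by more than the spread between replicates did so with scaling. For turning minus breaker, CHS2 was also -0.18 after median centring, CD2 was 1.70 after median centring, 2.32 after quantile and 2.42 after cyclic loess normalization, and MYB12 was -0.78 after quantile and -0.92 after cyclic loess normalization. For pink minus breaker, quantile normalization gave -1.34 for CHS1, -0.002 for CHS2, 0.87 for MYB12 and 0.57 for CD2, cyclic loess gave 0.66 for MYB12, 0.47 for CD2 and -1.49 for ltpg1. For red ripe minus breaker, quantile normalization gave -2.85 for CHS2, -2.59 for MYB12 and -1.65 for CD2, and cyclic loess -2.62 for CHS2 and -1.80 for CD2. For pink minus turning, CHS1 was 2.20 after quantile normalization, and CHS2 was -0.27 and CD2 -1.95 after cyclic loess. For red ripe minus pink, cyclic loess gave -2.62 for CHS1, -2.74 for CHS2, -3.75 for MYB12, -2.27 for CD2 and -5.57 for ltpg1, quantile normalization -2.85 for CHS2 and -2.22 for CD2, and median centring -2.14 for CHS2 and -1.46 for CD2. The causes were not tested. Leaving out 1 array moved CHS1 alone beyond its spread, by either turning array, to between -4.14 and -3.13 for turning minus breaker and between 1.21 and 2.22 for pink minus turning.

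Of the listed flavonoid genes 2 fell at turning, and 1 did with the replicate block, after quantile or cyclic loess normalization, with only the 2 stages compared, and with a fold change over 2 at an unadjusted or an adjusted p under 0.05, the last chosen after seeing the data. The number that rose was 1 at turning, but 3 after quantile normalization, 2 after cyclic loess, and 0 with array weights or only the 2 stages compared, and 1 at pink but 3 after quantile or cyclic loess normalization. Of the cuticle genes 1 fell at turning, but 0 with only the 2 stages compared and 2 at the thresholds of the study, and 2 fell at pink but 1 with the replicate block, quantile or cyclic loess normalization, array weights or only the 2 stages compared. Leaving out 1 array gave 1 to 2 flavonoid genes lower and 0 to 1 higher at turning, 1 to 2 lower and 0 to 1 higher at pink, and 1 to 3 cuticle genes lower at pink, 1 at turning and 2 to 3 at red ripe. Replicate numbers did not pair the arrays, since deviations of same-numbered arrays correlated between stages with r of -0.01 to 0.07, and the block changed no other count. Each gene had 1 probe set, so the mean over probe sets of a gene could not be run as an alternative. With no detection calls, whether CHS1, MYB12 and ltpg1 at red ripe, or lTTS1 after breaker, exceeded background was not tested.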
